A study of Mus musculus with 4 samples.

Results

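This account covers the mouse genes for potassium, sodium and ClC chloride channels, taken by gene symbol: the potassium channel subunits named Kcn, the voltage-gated sodium channel subunits named Scn with an alpha or beta suffix, and the chloride channels and transporters named Clcn. The rule found 98 of the 18193 genes that had a probe set with a single symbol. Each gene was read from 1 probe set, the brightest over the 4 arrays, leaving aside those ending in _x_at where a gene had another. Of these 98 genes, 23 had a signal high enough to test and 75 lay near background. Among the 23, Kcnc2 was 1.91-fold, Kcnn4 1.76-fold, Clcn3 1.43-fold and Clcn5 1.23-fold higher in LSD1-depleted cells than in control cells, and Kcnj12 was lower, with both of its signals in LSD1-depleted cells too low for a firm share of control.

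Potassium channels set the resting potential of a cell and end its action potentials, voltage-gated sodium channels start those action potentials, and in mature muscle the plasma membrane chloride channel steadies the potential between them. When myoblasts leave the cell cycle and fuse, their membrane becomes more negative. In human myoblasts this has been tied to an ether-a-go-go channel and to an inward rectifier, the products of the genes called Kcnh1 and Kcnj2 in the mouse. The calcium-activated channel encoded by Kcnn4 is known from cycling cells, where it keeps the membrane negative during calcium entry. Several ClC proteins are not surface channels at all but exchange chloride for protons in endosomes and lysosomes.

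RNA came from C2C12, a mouse myoblast line that forms myotubes once serum is reduced, measured on 3' expression arrays. The shLSD1 group (2 arrays) carried a stably selected plasmid for a short hairpin RNA against LSD1, the histone demethylase encoded by Kdm1a, and the shControl group (2 arrays) carried a plasmid for a non-targeting hairpin. Both groups were grown with 10% fetal bovine serum and 750 µg/mL hygromycin B, then kept for 48 hours in 2% horse serum, always at 25 mM glucose. Going by the labels, there was 1 selected population for each hairpin, so the knockdown and the selection of the cells cannot be told apart, and the arrays of a group are not said to be separate cultures, so that the spread between them may be technical.

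Kdm1a had signals of 922 and 1035 in shLSD1 arrays, against 4603 and 4588 in shControl arrays, which is 21.3% of control (log2 fold change -2.23, SE 0.07, limma adjusted p = 2.91e-05). In RNA from whole cultures, fewer cells expressing a gene and less of its RNA per cell cannot be told apart. The muscle identity of the cells was visible in all 16 muscle markers examined, each of which had a signal above the filter, and 12 of them were lower in shLSD1 cells. For this and the marker counts that follow, the shares over all 10874 tested genes were 8.75% higher and 7.09% lower. The summed signal of the 16 muscle markers was 157330 and 172374 in shLSD1 arrays, against 223380 and 220945 in shControl arrays. Of 12 neuron markers, 4 were bright enough to test and all 4 were higher in shLSD1 cells (summed signal of the 12, 6865 and 7095 in shLSD1 arrays, against 3761 and 3769 in shControl arrays), while Snap25, Syt1, Rbfox3, Elavl3, Elavl4, Syp, Gad1 and Slc17a7 lay near background. Of 10 epithelial markers, 4 were tested and 3 were higher (summed signal 1143 and 975 in shLSD1 arrays, against 395 and 425 in shControl arrays), with Epcam, Krt18, Cldn4, Cldn7, Esrp1 and Grhl2 near background. Among the 3 higher, Cdh1 (60.1 and 51.9) and Ocln (34.1 and 35.4) had both shControl signals under the filter. These genes entered the test through their shLSD1 signal, which limits the count. Of 8 fibroblast markers, 5 were tested and 4 were lower (summed signal 34310 and 30894 in shLSD1 arrays, against 41319 and 40790 in shControl arrays). Among the 4 lower, Lum had both shLSD1 signals (58.8 and 33.1) under the filter and entered the test through its shControl signal (148 and 121). Of the measured genes, 2 of 6 glia, 3 of 8 cardiac and 2 of 6 adipocyte markers were tested, and 0 passed. None of 7 endothelial markers was bright enough to test. The part of the muscle, neuron, epithelial and fibroblast marker shifts in the channel results below was not tested.

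Most of the channel genes gave little signal in these cells. The filter was set at the median of all probe sets, a signal of 65.6, and 23.5% of the channel genes lay above it, against 59.8% of all genes. As a second yardstick, 38 olfactory receptor genes had a median signal of 16.4 and a 95th percentile of 39.3, none of them reached the filter, and 65 of the 98 channel genes lay at or below that percentile. The channel genes nearest to the filter were Kcng2, Kcna6 and Kcnk13 above it, with mean signals of 66.0, 67.2 and 71.1, and Kcnj15, Kcnj3 and Kcnk7 below it, with 62.8, 62.3 and 61.2. Near background the replicates scattered widely: the median absolute difference between the 2 arrays of a group, on the log2 scale, was 0.90 in shLSD1 and 0.59 in shControl for the 75 dim channel genes, against 0.25 in shLSD1 and 0.20 in shControl for the 23 tested ones. For the 10874 tested genes of the whole array it was 0.11 in shLSD1 and 0.08 in shControl, so the tested channel genes were themselves less precise than the typical tested gene.

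**Figure D1:**
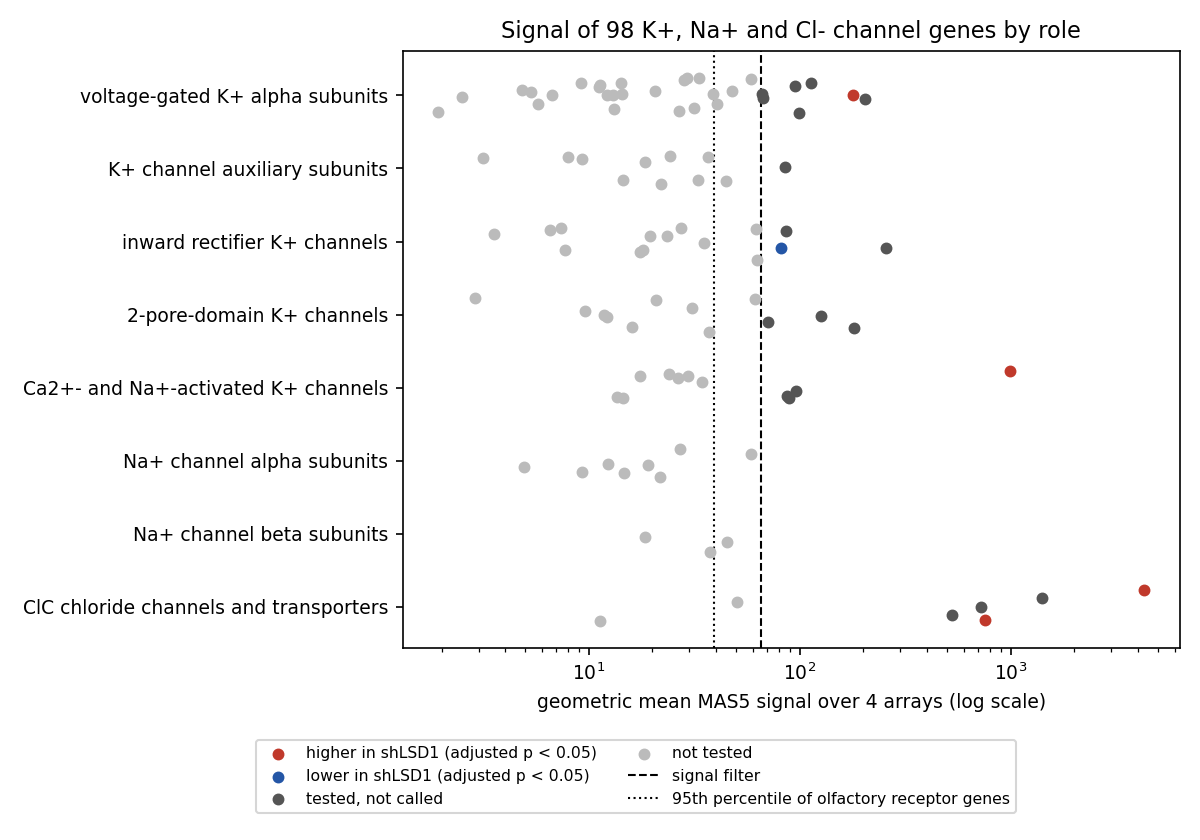
Mean signal over the 4 arrays (x axis, log scale, geometric mean) of the 98 channel genes, grouped by role (y axis), with the signal filter as a dashed line and the 95th percentile of olfactory receptor genes as a dotted line. Both sodium channel groups lie wholly left of the filter, whereas 5 of 7 ClC genes lie right of it, and the coloured points are the 4 genes higher and the 1 gene lower in shLSD1 cells.

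The roles differed in how many members were bright enough to test. Above the filter were 7 of 31 pore-forming (alpha) subunits of voltage-gated potassium channels, 1 of 11 auxiliary subunits, 3 of 15 inward rectifiers, 3 of 12 channels with 2 pore domains, 4 of 11 calcium- or sodium-activated channels and 5 of 7 ClC genes. None of the 8 sodium channel alpha subunits and none of the 3 beta subunits passed it. Of the 23 tested channel genes, 4 were higher and 1 was lower in shLSD1 cells at a limma adjusted p under 0.05, and 18 did not pass. The 1 lower gene, Kcnj12, entered the test through its shControl signal, which limits the count and the share called. Across all 10874 tested genes the share called was 15.8%, with 8.75% higher and 7.09% lower, and the 21.7% among the tested channel genes rests on 5 genes. In 16 of the 23 tested channel genes the groups did not overlap, against 60.1% of all tested genes. The median log2 fold change was 0.06 over the tested channel genes and 0.00 over all tested genes. The count of channel genes called depended on the control arrays: without shControl replicate 1 the calls were Kcnn4 and Kcnj12, without shControl replicate 2 only Kcnn4, and over the whole array the calls dropped to 582 and 580 genes.

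**Figure D2:**
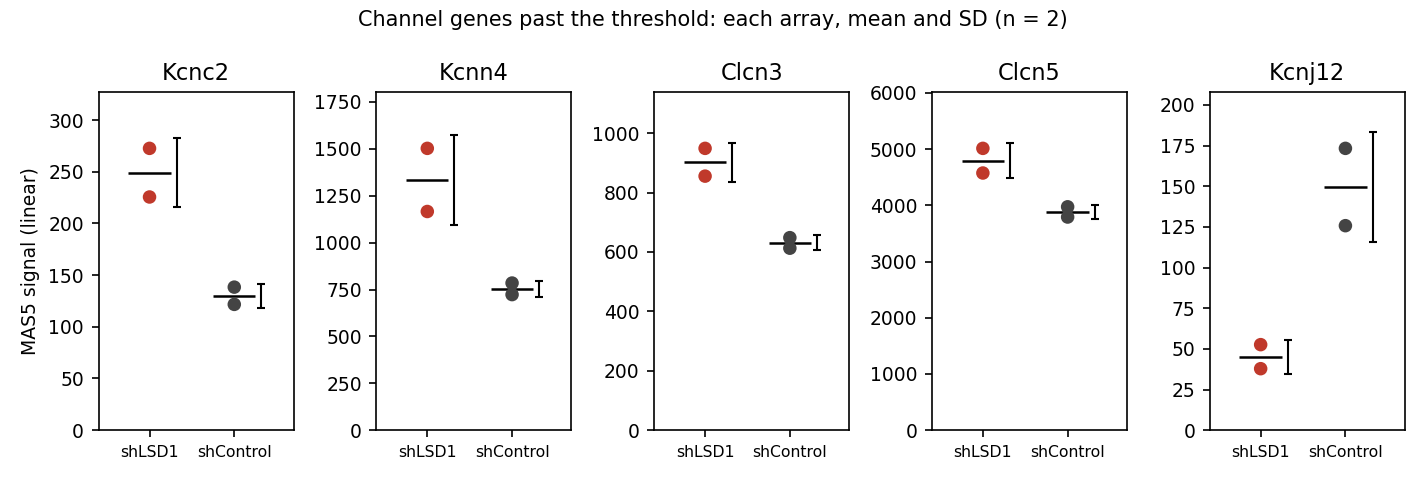
MAS5 signal (y axis, linear, from 0) of the 5 channel genes past the threshold, with 1 point per array, shLSD1 left and shControl right, the group mean as a horizontal line and the SD (n = 2) as a bar beside it. In each panel the 2 shLSD1 points are separated from the 2 shControl points, above them for Kcnc2, Kcnn4, Clcn3 and Clcn5 and below them for Kcnj12.

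Among calcium-activated potassium channels, Kcnn4 rose. It encodes the intermediate-conductance channel, which opens through bound calmodulin. Its signal was 1503 and 1166 in shLSD1 arrays, against 723 and 785 in shControl arrays. Both shLSD1 values lay well above both control values, although the 2 shLSD1 arrays were further apart than the 2 control arrays. The change was 1.76-fold (log2 0.81, SE 0.12, limma adjusted p = 4.58e-03). The second Kcnn4 probe set had signals of 682 and 604 in shLSD1 arrays, against 384 and 313 in shControl arrays (log2 0.89, SE 0.13, limma adjusted p = 4.35e-03 in a fit of all probe sets). The call held without each of the 4 arrays in turn, and was lost without the intensity trend of the variance (limma adjusted p = 0.0618).

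Of the other calcium- or sodium-activated channel genes, 3 were tested and did not pass. Kcnmb2, a beta subunit of the large-conductance channel that inactivates it, had signals of 128 and 116 in shLSD1 arrays, against 73.3 and 77.7 in shControl arrays. The groups did not overlap, but the log2 fold change of 0.69 (SE 0.24) did not pass (limma adjusted p = 0.0916). Among the 13 alternative fits it passed only the one without the intensity trend (limma adjusted p = 0.0348). Another beta subunit gene, Kcnmb4, had 58.4 and 85.4 in shLSD1 arrays, against 89.7 and 140 in shControl arrays (log2 -0.67, SE 0.33, limma adjusted p = 0.217). The small-conductance channel gene Kcnn1, which like Kcnh2, Kcnh3 and Kcnip3 below is named after its values were seen, measured -0.42 (SE 0.25, limma adjusted p = 0.312).

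The pore gene of the large-conductance channel, Kcnma1, stayed near background, with 48.1 and 38.5 in shLSD1 arrays, against 5.53 and 75.0 in shControl arrays. Its shControl arrays spanned both shLSD1 values. The small-conductance genes Kcnn2 (28.3 and 41.9 in shLSD1 arrays, against 35.0 and 33.2 in shControl arrays) and Kcnn3, whose channel is known from denervated muscle (15.7 and 11.7 in shLSD1 arrays, against 11.2 and 16.7 in shControl arrays), were also below the filter. In all, 7 of the 11 genes of this role lay near background.

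Among voltage-gated potassium channels, Kcnc2 rose, and 6 other alpha subunits did not pass. Kcnc2 encodes a fast delayed rectifier best known from fast-spiking neurons. Its signal was 273 and 226 in shLSD1 arrays, against 138 and 122 in shControl arrays, so that every shLSD1 value exceeded every control value. The change was 1.91-fold (log2 0.93, SE 0.18, limma adjusted p = 0.0132), from the only Kcnc2 probe set. The call was lost without either shControl array, where the log2 fold change was 1.027 without replicate 1 and 0.842 without replicate 2.

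A pair of ether-a-go-go family genes had lower values in shLSD1 cells without passing. Kcnh2, whose channel repolarises the heart, had 79.6 and 71.4 in shLSD1 arrays, against 121 and 139 in shControl arrays (log2 -0.78, SE 0.24, limma adjusted p = 0.0643). Without the intensity trend it passed (limma adjusted p = 0.0406). Kcnh3, a neuronal member, had 67.0 and 76.4 in shLSD1 arrays, against 109 and 149 in shControl arrays (log2 -0.83, SE 0.27, limma adjusted p = 0.0758). Neither gene's groups overlapped, but the other Kcnh3 probe sets above the filter gave -0.48 and -0.12. Kcnh1, the member tied to fusion of human myoblasts, lay near background, with 41.9 and 31.9 in shLSD1 arrays, against 17.9 and 27.0 in shControl arrays.

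The remaining tested alpha subunits moved little against their error in the probe sets used. Kcnf1, an electrically silent subunit that modifies other channels, had 275 and 173 in shLSD1 arrays, against 205 and 175 in shControl arrays (log2 0.20, SE 0.24, limma adjusted p = 0.613). Kcnd1, which carries a transient current, had 128 and 117 in shLSD1 arrays, against 111 and 101 in shControl arrays (log2 0.21, SE 0.22, limma adjusted p = 0.557). Kcna6 and the silent subunit Kcng2, both just above the filter, measured -0.35 (SE 0.41) and -0.04 (SE 0.34). The other Kcna6 probe sets, below the filter, read lower in shLSD1 arrays (9.42 and 18.8, against 48.9 and 39.7, and 3.57 and 2.67, against 16.3 and 7.39). The mean of the Kcna6 probe sets gave -1.305 and did not pass (limma adjusted p = 0.172). Genes of this role that are known from skeletal muscle had mean signals below the filter. Kcna7 read 15.3 and 78.4 in shLSD1 arrays, against 15.1 and 55.2 in shControl arrays, so that its replicates disagreed in both groups. Kcnq5 read 8.51 and 23.1 in shLSD1 arrays, against 26.4 and 7.83 in shControl arrays. Kcnc1, Kcnc4 and Kcna5 also lay below the filter, with no array of Kcna5 above 25.9.

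Among inward rectifiers, Kcnj12 fell and the others did not pass. Kcnj12 encodes a strong inward rectifier of heart and skeletal muscle that helps to hold the resting potential. Its signal was 37.8 and 52.6 in shLSD1 arrays, against 126 and 173 in shControl arrays. Both shLSD1 values were under the filter, so the gene entered the test through its control signal, and 1 of them lay at or below the 95th percentile of olfactory receptor genes. The fitted log2 difference was -1.73 (SE 0.31, limma adjusted p = 9.61e-03), and because its shLSD1 level is not clearly above background, that size is not firm and no remaining share is given. Its only probe set gives no second reading, and leaving out shControl replicate 2 ended the call, with a log2 difference of -1.496.

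Kcnj11 did not pass, and its shLSD1 arrays disagreed. It encodes the pore of the ATP-sensitive potassium channel, which links the membrane of muscle and beta cells to their energy state. It had 307 and 125 in shLSD1 arrays, against 350 and 318 in shControl arrays. The gap between the shLSD1 arrays was larger than that between the group means, since replicate 1 lay close to control and replicate 2 far below it. The log2 fold change of -0.77 (SE 0.36) had a limma adjusted p of 0.198. It was -1.42 without shLSD1 replicate 1 (limma adjusted p = 9.27e-04) and lay at -0.12 without shLSD1 replicate 2. The mean of its probe sets gave the opposite sign (0.78, limma adjusted p = 0.538), the second one being near background.

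Kcnj6, a G protein-activated rectifier of neurons, had 84.4 and 103 in shLSD1 arrays, against 70.7 and 91.4 in shControl arrays (log2 0.21, SE 0.28, limma adjusted p = 0.655). Kcnj2, the rectifier tied to human myoblast fusion, read 21.3 and 1.69 in shLSD1 arrays, against 2.75 and 1.58 in shControl arrays, and its single probe set therefore carried no usable level in either group. Below the filter, 4 of 12 inward rectifiers had shLSD1 values wholly below the control values, against 18.9% of all dim genes, and 0 had them wholly above, against 16.7% of all dim genes.

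Channels with 2 pore domains, which carry the leak current of resting cells, gave no call. Kcnk5, an acid-sensitive leak channel, had 189 and 219 in shLSD1 arrays, against 177 and 149 in shControl arrays (log2 0.33, SE 0.18, limma adjusted p = 0.269). Kcnk2, a leak channel opened by stretch, had 163 and 102 in shLSD1 arrays, against 136 and 112 in shControl arrays, so that the shLSD1 arrays enclosed the control ones (log2 0.06, SE 0.27, limma adjusted p = 0.908). Kcnk13 had 42.0 and 72.1 in shLSD1 arrays, against 80.0 and 105 in shControl arrays (log2 -0.74, SE 0.36, limma adjusted p = 0.214). Of these 3 genes, 0 had an unadjusted limma p under 0.05.

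The auxiliary subunits were nearly all dim. Kcnab1, a cytoplasmic beta subunit of Shaker-type channels, was the one above the filter, with 75.5 and 88.2 in shLSD1 arrays, against 77.3 and 100 in shControl arrays (log2 -0.11, SE 0.28, limma adjusted p = 0.831). Its groups overlapped. Kcnab2 read 37.2 and 4.71 in shLSD1 arrays, against 5.08 and 8.45 in shControl arrays, and Kcne3, whose product pairs with a fast potassium channel in muscle, had no array above 6.54.

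Kcnip3 was the dim channel gene with the widest separation. It encodes a calcium-binding protein that works both as a subunit of transient potassium channels and, under the name DREAM, as a transcriptional repressor. The probe set used had 97.5 and 69.8 in shLSD1 arrays, against 7.03 and 4.82 in shControl arrays. Both shLSD1 values were above the filter and both control values were at background, so that the mean fell below it. With no filter it was the only one of the 75 dim channel genes to pass (limma adjusted p = 0.0156), as did 0.424% of all dim genes. Both control values lay under the median of the olfactory receptor genes, so no size is given for the difference. The second Kcnip3 probe set did not show this difference, with 15.5 and 18.2 in shLSD1 arrays, against 14.7 and 19.5 in shControl arrays.

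Sodium channel genes could not be compared at these signals. The 8 alpha subunits measured were Scn1a, Scn2a, Scn3a, Scn7a, Scn8a, Scn9a, Scn10a and Scn11a, most of them known from neurons. Scn7a had 58.8 and 64.6 in shLSD1 arrays, against 59.4 and 52.1 in shControl arrays, with overlapping groups, and none of the 8 had a mean signal above 58.6. The beta subunits Scn2b, Scn3b and Scn4b, which modulate and anchor the pore, had mean signals of 37.7, 45.4 and 18.5. Scn4a, the skeletal muscle sodium channel gene, was not analysed here.

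Among the ClC genes, Clcn3 and Clcn5 rose, both coding for exchangers of endosomes. Clcn3 had 949 and 855 in shLSD1 arrays, against 648 and 613 in shControl arrays. The groups were far apart relative to their spread, and the change was 1.43-fold (log2 0.52, SE 0.09, limma adjusted p = 8.92e-03). The other 4 Clcn3 probe sets gave log2 fold changes between 0.05 and 0.63, all positive. The call was lost without either shControl array, where the log2 fold change was 0.556 without replicate 1 and 0.475 without replicate 2. It was also lost without the intensity trend (limma adjusted p = 0.0534).

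Clcn5, whose loss in the kidney impairs protein reuptake, had 4575 and 5014 in shLSD1 arrays, against 3974 and 3792 in shControl arrays. The separation was small but larger than the spread within either group, at 1.23-fold (log2 0.30, SE 0.06, limma adjusted p = 0.0146). The other 3 Clcn5 probe sets gave 0.21 to 0.32. The call was lost without either shControl array, where the log2 fold change was 0.337 without replicate 1 and 0.269 without replicate 2. It was also lost without the intensity trend (limma adjusted p = 0.113) and when its probe sets were averaged (limma adjusted p = 0.0522).

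The late endosomal and lysosomal genes Clcn6 and Clcn7 had higher values in shLSD1 cells that did not pass. Clcn6 had 548 and 652 in shLSD1 arrays, against 439 and 482 in shControl arrays (log2 0.38, SE 0.12, limma adjusted p = 0.0703). With each array left out in turn, its log2 fold change ranged from 0.25 to 0.50. Its second probe set gave 0.22 (SE 0.17, limma adjusted p = 0.464 in a fit of all probe sets). Clcn7, whose exchanger works in lysosomes and at the ruffled border of osteoclasts, had 727 and 805 in shLSD1 arrays, against 692 and 678 in shControl arrays (log2 0.16, SE 0.09, limma adjusted p = 0.276). Its second probe set above the filter gave -0.08. Ostm1, the gene for the partner subunit of the Clcn7 protein and chosen after its value was seen, measured 0.16 (SE 0.05, limma adjusted p = 0.0829).

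Clcn4, an endosomal relative of Clcn3 and Clcn5, had 1354 and 1454 in shLSD1 arrays, against 1511 and 1337 in shControl arrays. The shLSD1 values lay inside the control range, and the log2 fold change was -0.02 (SE 0.08, limma adjusted p = 0.907), with 0.04 from its other probe set. The plasma membrane channel genes were dim. Clcn1, which provides most of the resting chloride conductance of mature skeletal muscle, read 12.5 and 6.79 in shLSD1 arrays, against 14.6 and 13.1 in shControl arrays, and Clcn2, a channel opened by hyperpolarisation, read 62.7 and 49.6 in shLSD1 arrays, against 53.2 and 39.6 in shControl arrays.

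**Figure D3:**
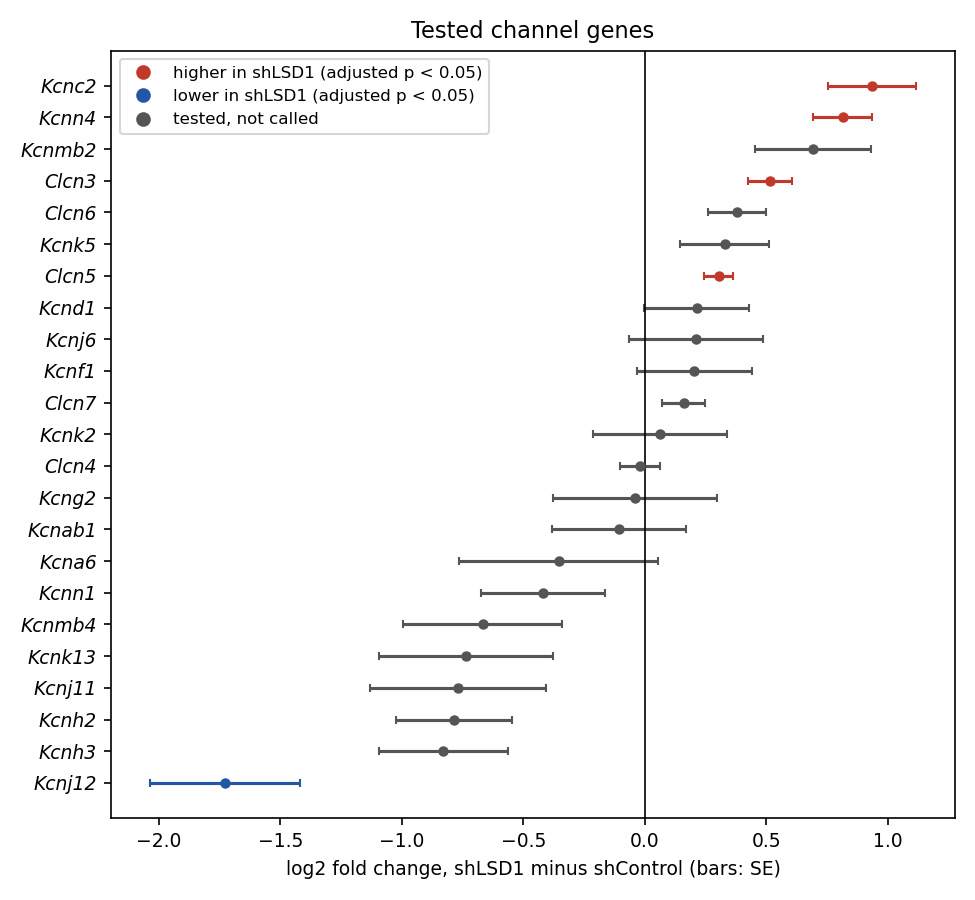
Log2 fold change of shLSD1 minus shControl (x axis, bars are the SE of the limma fit) for the 23 tested channel genes, ordered by value. Kcnc2 at 0.93 and Kcnj12 at -1.73 mark the ends, and genes such as Kcnj11, Kcnh2 and Kcnh3 lie far from 0 with wide bars and did not pass. The size for Kcnj12 is not firm, because both of its shLSD1 signals were under the filter.

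**Figure D4:**
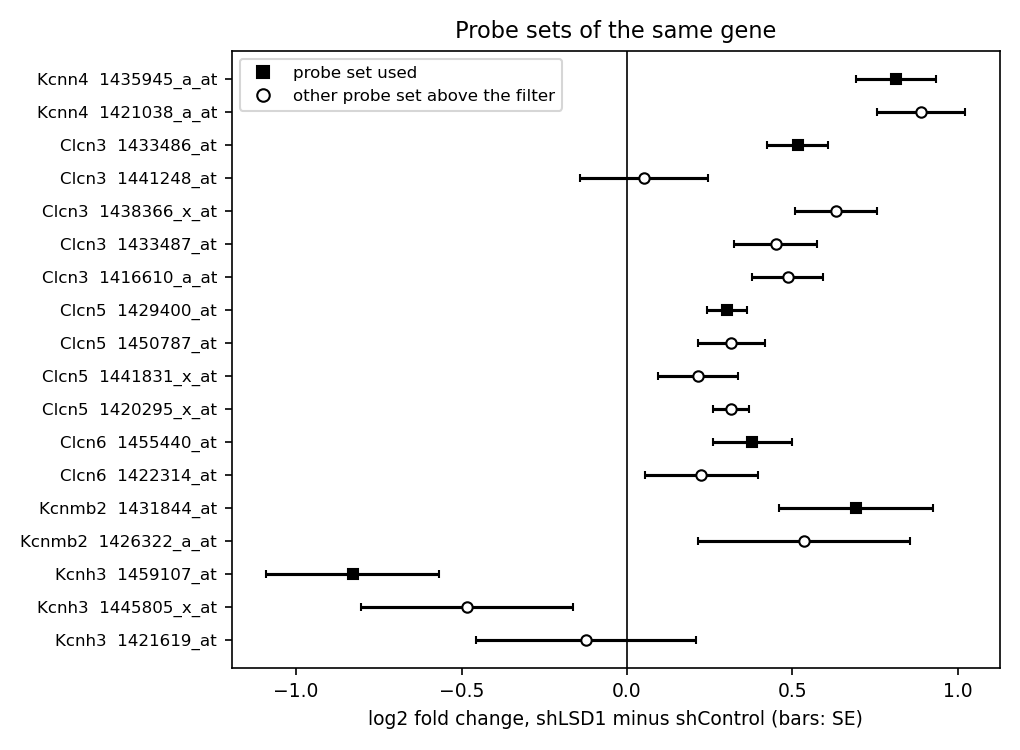
Log2 fold change of shLSD1 minus shControl (x axis, bars are the SE from a fit of all probe sets above the filter) of each such probe set for 6 channel genes that have several, with the probe set used as a filled square and the others as open circles. The readings of Kcnn4, Clcn5 and Clcn6 lie close together, 1 Clcn3 probe set lies near 0 at 0.05 while the other readings of that gene lie between 0.45 and 0.63, and the Kcnh3 readings spread from -0.83 to -0.12.

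The starts of the 5 called genes are shown because these are the channel genes whose transcripts differed between the groups, and LSD1 acts on chromatin at promoters and enhancers. In the lines below, capitals mark the E-box CANNTG and the GC box GGGCGG, on either strand. CANNTG is a general core for helix-loop-helix factors, the myogenic ones among them, so a match does not by itself mark a myogenic site. Each line is the 250 bases before the annotated start, in the direction of the gene, from RefSeq on GRCm38.p6. They are Kcnn4 at chr7:24370013-24370262 (plus strand), Kcnc2 at chr10:112269767-112270016 (plus strand, the most upstream of 4 annotated starts), Clcn3 at chr8:60983312-60983561 (minus strand, the upstream of 2), Clcn5 at chrX:7319359-7319608 (minus strand, the upstream of 2) and Kcnj12 at chr11:61065554-61065803 (plus strand).
Kcnn4: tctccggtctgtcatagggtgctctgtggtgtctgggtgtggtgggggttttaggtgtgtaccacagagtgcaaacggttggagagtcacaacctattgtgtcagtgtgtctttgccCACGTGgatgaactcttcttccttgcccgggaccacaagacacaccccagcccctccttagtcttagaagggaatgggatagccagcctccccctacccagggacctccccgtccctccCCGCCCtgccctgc
Kcnc2: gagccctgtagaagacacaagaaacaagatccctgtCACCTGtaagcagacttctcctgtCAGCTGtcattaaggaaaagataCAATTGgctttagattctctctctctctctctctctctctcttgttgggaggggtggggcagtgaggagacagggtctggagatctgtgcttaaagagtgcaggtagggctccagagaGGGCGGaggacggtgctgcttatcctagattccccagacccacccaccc
Clcn3: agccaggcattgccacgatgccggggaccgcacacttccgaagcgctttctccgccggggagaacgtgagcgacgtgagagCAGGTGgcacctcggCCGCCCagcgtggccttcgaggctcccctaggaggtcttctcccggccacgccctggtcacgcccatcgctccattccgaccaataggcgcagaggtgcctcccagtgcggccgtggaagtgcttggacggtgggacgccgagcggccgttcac
Clcn5: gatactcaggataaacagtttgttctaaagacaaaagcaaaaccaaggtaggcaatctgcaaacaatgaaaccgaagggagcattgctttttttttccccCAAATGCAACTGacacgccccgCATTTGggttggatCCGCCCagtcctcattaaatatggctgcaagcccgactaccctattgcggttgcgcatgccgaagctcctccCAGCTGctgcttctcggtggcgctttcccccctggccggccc
Kcnj12: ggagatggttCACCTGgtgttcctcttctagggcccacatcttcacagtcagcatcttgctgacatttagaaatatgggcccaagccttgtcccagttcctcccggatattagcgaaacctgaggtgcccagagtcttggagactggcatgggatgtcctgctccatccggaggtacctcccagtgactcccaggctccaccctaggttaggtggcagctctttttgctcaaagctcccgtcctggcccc

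Each of the 5 windows held CANNTG, with 4 matches in Clcn5, 3 in Kcnc2 and 1 in each of the others, and 66.2% of 32851 annotated windows of this length hold it. The narrower form CAGCTG, which is contained in CANNTG, occurred once in Kcnc2 and once in Clcn5 (13.0% of all windows). GGGCGG occurred in every window but that of Kcnj12 (32.7% of all windows). The TEAD core GGAATG occurred once in Kcnn4 and once in Clcn3 (12.6% of all windows). The TATA box TATAAA (12.4%), the AP-1 core TGANTCA (6.75%) and 2 pieces of the RE1 element that brings the REST and CoREST repressors to DNA, TTCAGCACC (0.301%) and GGACAGC (5.28%), were not among the letters of these windows. The bases of the windows were G or C for 68.4% in Clcn3, 58.8% in Kcnn4, 56.0% in Kcnj12 and 52.4% in Kcnc2 and Clcn5, against a median of 52.4% over all windows.

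Below the filter, 24 of 75 channel genes had groups that did not overlap, against 35.6% of the 7319 dim genes of the whole array. In 9 of them shLSD1 lay above (16.7% of all dim genes) and in 15 below (18.9% of all dim genes), shares near the background. Among those with shLSD1 above were Kcnq1, a slow delayed rectifier of heart and epithelia, with 36.0 and 68.3 in shLSD1 arrays, against 16.4 and 13.0 in shControl arrays, and the silent subunit Kcns3, with 17.0 and 37.0 in shLSD1 arrays, against 2.81 and 3.93 in shControl arrays. Among those with shLSD1 below were Kcna3, a Shaker-type channel known from T cells, with 1.97 and 11.3 in shLSD1 arrays, against 26.1 and 26.8 in shControl arrays, and the silent subunit Kcng4, with 24.3 and 3.76 in shLSD1 arrays, against 46.9 and 42.2 in shControl arrays. These 4 genes were chosen after their values were seen, and with no filter none of them passed (limma adjusted p = 0.152 for Kcnq1, 0.109 for Kcns3, 0.228 for Kcna3 and 0.246 for Kcng4).

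Genes that work beside these channels were examined in 3 lists of 115 genes, of which 97 were measured and 61 tested. The lists were chosen with earlier results of these data known, so their counts are not an independent comparison with the shares over all genes. Together 7 rose and 9 fell, against 8.75% higher and 7.09% lower over all tested genes, with a median of -0.03. Among binding partners, coupling proteins and regulators, 6 of 29 tested genes fell and 2 rose. Chrng, the fetal subunit of the acetylcholine receptor, fell to 3091 and 3456 in shLSD1 arrays, against 4912 and 5084 in shControl arrays (log2 -0.61, SE 0.06, limma adjusted p = 1.13e-03). Cav3, the muscle caveolin, fell by 0.74 on the log2 scale and Sgk1, a kinase that raises channel abundance at the membrane, by 0.42, while Ank2, an ankyrin that anchors channels and exchangers, rose by 0.84 (SE 0.12, limma adjusted p = 3.51e-03).

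Among ion pumps and cotransporters, 3 of 10 tested genes fell and 0 rose, against 7.09% lower and 8.75% higher over all tested genes. Atp1b1, a beta subunit of the sodium pump that restores the gradients these channels use, had 2025 and 2187 in shLSD1 arrays, against 3023 and 3032 in shControl arrays (log2 -0.52, SE 0.06, limma adjusted p = 1.57e-03). The brighter beta subunit gene Atp1b3, chosen after its values were seen, had 5176 and 5375 in shLSD1 arrays, against 5539 and 5650 in shControl arrays. It did not pass (log2 -0.085, SE 0.05, limma adjusted p = 0.278). The chloride cotransporter genes Slc12a2, which loads cells with chloride, and Slc12a7, which extrudes it, fell by 0.34 each (limma adjusted p = 8.45e-03 and 0.0232).

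Among other potassium, sodium and chloride channels outside the 98, 5 of 22 tested genes rose and 0 fell, against 8.75% higher and 7.09% lower over all tested genes. Lrrc8c, a subunit of the volume-regulated anion channel, had 961 and 926 in shLSD1 arrays, against 451 and 452 in shControl arrays (log2 1.06, SE 0.09, limma adjusted p = 4.33e-04). Lrrc8a, the obligatory subunit of the same channel and chosen after its values were seen, had 1275 and 1100 in shLSD1 arrays, against 1375 and 1325 in shControl arrays (log2 -0.19, SE 0.09, limma adjusted p = 0.186). Clic5 rose 2.22-fold, Clic1 rose by 0.44 and Ano6, a calcium-activated scramblase and ion channel, rose by 0.39 on the log2 scale.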

How the data were processed

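The authors deposited 1 signal intensity for each probe set and array, on a linear scale, from MAS5 and Affymetrix Expression Console (of unstated version) per the submitters' processing notes. The trimmed mean was 500.003 on all 4 arrays, so each had been scaled by 1 factor. Logs of dim MAS5 signals are noisy.

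Signals under 1 were set to 1 and log2 was taken. Of 45101 probe sets, 34945 had 1 gene symbol. Probe sets ending in _x_at were avoided where a gene had another. The 10874 of 18193 genes above the median mean log2 signal (6.03) were compared with limma 3.58.1 in R 4.3.3 (lmFit, then eBayes with the trend option, 7.53 degrees of freedom in total), two-sided, with Benjamini-Hochberg adjustment over all of them and a threshold of 0.05. Values are shLSD1 minus shControl. The number of arrays limits the precision. Figures were drawn with matplotlib 3.10.9.

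Genes named are Kdm1a, the channel genes past the threshold, the 3 brightest tested members of each role, a set of muscle channel genes, those at the filter's edge and up to 4 per related list, with exceptions stated. The members and lists were chosen with earlier results of these data known. Alternatives tried were leaving out each array, a replicate block, median centring, quantile normalization, a pseudocount of 32, no filter, a filter from olfactory receptor genes, robust variance, a fit with no intensity trend, averaging the probe sets of a gene and an adjusted p under 0.10. Tested on simulated data for this comparison (10874 genes), the fit recovered 50 of 67 genes changed by 0.5, 66 of 67 changed by 1 and 66 of 66 changed by 2 on the log2 scale, with 6 false calls. The simulated noise was normal, with an SD set by the mean signal alone, so that genes of like signal did not differ in noise. These shares therefore cannot be carried over to the tested channel genes, which were less precise than the typical tested gene.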

Additional observations from a re-analysis of the deposited data

How the results depend on the processing

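The count of channel genes higher in shLSD1 (4 as reported) ranged from 1 to 5 with each array left out in turn and was 2 without the intensity trend. The count lower (1 as reported) ranged from 0 to 2 with each array left out, and was 2 with the replicate block, 2 without the intensity trend and 3 at an adjusted p under 0.10. For the related lists, the count higher (7 as reported) ranged from 5 to 12 with each array left out, and was 11 with the replicate block, 4 without the intensity trend and 13 at an adjusted p under 0.10. The count lower there (9 as reported) ranged from 3 to 14 with each array left out, and was 14 with the replicate block, 2 without the intensity trend and 3 when probe sets were averaged. Over all genes, 1722 were called as reported, 639 without the intensity trend, 891 with the mean of probe sets, and 582 and 580 without shControl replicates 1 and 2. The causes were not tested.

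The 5 called channel genes were all called under the replicate block, median centring, quantile normalization, a pseudocount of 32, no filter, the olfactory receptor filter and robust variance. The olfactory receptor filter, planned as the stricter one, was the looser one here, and under it 65 rather than 75 channel genes counted as near background. Kdm1a ranged from -2.32 to -2.15 with each array left out.

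Signs turned for genes that were not called. With each array left out in turn, Kcnf1 ranged from -0.13 to 0.54 (it was -0.132 without shLSD1 replicate 1), Kcnab1 from -0.29 to 0.08 (0.004 without shLSD1 replicate 1, 0.077 without shControl replicate 2), Kcnk2 from -0.28 to 0.40 (-0.082 without shControl replicate 2), Clcn4 from -0.11 to 0.07 (0.033 without shLSD1 replicate 1), Kcna6 from -0.92 to 0.21 (0.207 without shLSD1 replicate 1) and Kcng2 from -0.30 to 0.21 (0.159 without shControl replicate 2). With the mean of probe sets, Kcnj11 was 0.776 and Clcn4 was 0.011.

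The labels number the arrays 1 and 2 in both groups without saying that a number marks a shared culture or day, and the deviations of same-numbered arrays from their group means had a correlation of 0.003 across genes. With that number as a block 2221 genes were called, and among the channel genes Clcn6 (limma adjusted p = 0.0290) and Kcnj11 (limma adjusted p = 0.0242) were added.

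Without detection calls, a signal near background gives no firm level, which limits 75 of the 98 genes.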
